A study of Mus musculus with 8 samples.

Results

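The 5 genes described here, Stra8, Rec8, Dazl, Meioc and Ythdc2, act when mouse germ cells leave mitosis and enter meiosis. They were chosen by name, and all 5 were found among the 21900 protein-coding genes of the RefSeq gene table for GRCm38, the build also called mm10. Peak summits of V5-tagged ZGLP1, single-base positions at the tops of peaks, were counted inside each gene and within 10 kb and 50 kb of its start or end. Of the 32927 summits deposited, 8 lay inside a member, 11 lay inside or within 10 kb of a member, and 26 lay inside or within 50 kb.

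ZGLP1 is a nuclear protein with GATA-like zinc fingers, and the study's title names it as a determinant of the oogenic fate. Chromatin was collected with an anti-V5 antibody from mouse cells of a C57BL/6 x DBA2 background carrying a V5-tagged Zglp1 overexpression construct, labelled V5Zglp1OE and switched on with doxycycline (Dox). The 8 libraries were 5 ChIP and 3 input libraries, with 1 library per group. PGCLCs, primordial germ cell-like cells derived in vitro from embryonic stem cells (ESCs), received Dox and retinoic acid (RA) or Dox alone from c3 onward and were taken at c7 or c8, the labels' names for days of expansion culture. These PGCLCs were sorted for the SC reporter and mCherry, and gave 4 ChIP libraries, from c7 and c8 with Dox and RA and from c7 and c8 with Dox only. Inputs came from c8 with Dox and RA and from c8 with Dox only. ESCs received Dox and RA for 24 h in 2iLIF, were sorted for mCherry, and gave 1 ChIP library and 1 input. Each ChIP used 4000000 cells, and every group carried the construct and received Dox. The labels name the ESC lines H18 BVSC and BDF1-2-1 BVSC without saying which gave a library, and PGCLCs were expanded on m220 feeder cells. The identity of the cells could not be checked against marker genes, since summits carry no expression. The summits are in a single list that names no library and holds no height. No treatment, day or cell type was therefore compared, and read depth at a summit is not known.

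STRA8 is a retinoic acid-responsive transcription factor that works with MEIOSIN to switch on the meiotic programme. REC8 is the kleisin subunit of meiotic cohesin, which holds sister chromatids together, and its gene also responds to retinoic acid. DAZL is an RNA-binding protein that makes germ cells competent to answer the signal for meiosis. MEIOC binds the RNA helicase YTHDC2, and the complex clears mitotic transcripts so that germ cells stay in meiotic prophase.

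Each member had a summit inside its own span. The count was 5 of 5, while 54.5% of all protein-coding genes had a summit inside. Inside or within 10 kb the count was again 5 of 5, against 68.4% of all protein-coding genes, and inside or within 50 kb it was 5 of 5, against 78.3%. These 3 backgrounds are high, so that a summit near a gene was the common state in this list. By number, Stra8, Dazl and Meioc had 2 summits inside, and Rec8 and Ythdc2 had 1. The median was 2 over the members and 1 over all protein-coding genes. Inside or within 10 kb, Stra8 and Rec8 had 3 summits, Dazl and Meioc 2 and Ythdc2 1, with a median of 2 over the members and 1 over all protein-coding genes. At least 3 summits, as at Stra8 and Rec8, were found at 30.0% of protein-coding genes. All 8 summits inside members lay in no other protein-coding gene.

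The members differed in where those summits sat. Annotated starts and strands were available for 4 members and for 17492 protein-coding genes in all, from the RefSeq promoter table for GRCm38.p6. A summit lay within 1 kb of the start in 4 of 4 members, against 55.7% of the 17492 genes. Within 250 bases the count was 3 of 4, for Rec8, Dazl and Meioc, against 44.5%. Stra8 was the exception, with its closest summit 988 bases into the gene. A start with a summit between 250 bases and 1 kb but none closer, the arrangement at Stra8, was found at 11.2% of genes. Over all genes with a summit within 1 kb of the start, the offset of the closest summit had a median of 18 bases and quartiles of -90 and 131 bases, where the start base is 0, a negative offset is before it and a positive one is into the gene.

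**Figure D1:**
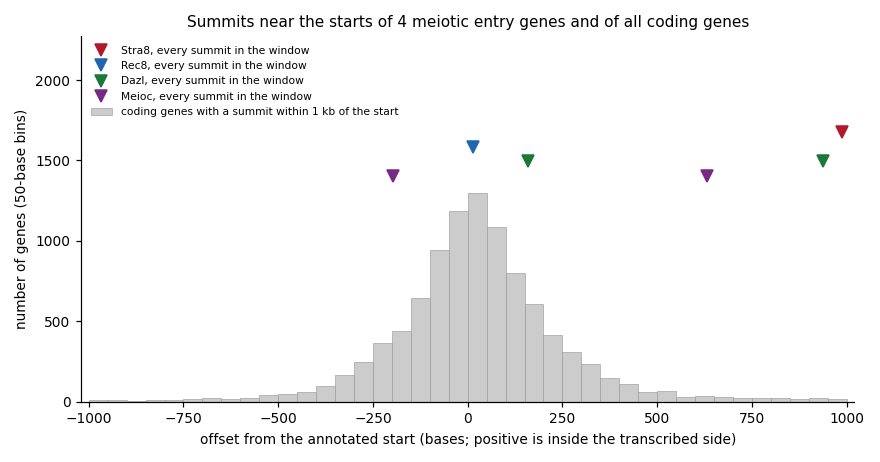
Offset of summits from the annotated start, in bases, for 4 members (triangles, every summit within 1 kb, heights arbitrary) above the histogram of the closest summit of 9743 protein-coding genes in 50-base bins. Rec8 sits at 14 bases in the peak of the histogram, Dazl at 160 and 937, Meioc at -196 and 632, and Stra8 at 988 bases in its tail.

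Stra8 (gene ID 20899) spans chr6:34920163-34939344, 19182 bases on the plus strand. Its annotated start is at 34920948, 785 bases inside the lower boundary of the gene table. The first of its summits lay at 34921936, 988 bases after that start and 1773 bases above the lower boundary. The second lay at 34927271, 6323 bases after the start, and was 5335 bases from the first. Both summits were thus in the transcribed part of the gene, and the only other summit within 10 kb of the gene sat at its neighbour. The summit outside Stra8, at 34910702, was 9461 bases outside the gene and 129 bases inside Wdr91, at the start of that gene. Across all genes with a start, 55.7% had a summit at least as close to a start as Stra8 did. On the far side, no summit was listed for 56262 bases beyond the end of Stra8, a stretch that holds Slc23a4, and the next one lay at 34995606.

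Dazl (gene ID 13164) spans chr17:50279393-50293620, 14228 bases on the minus strand, so that its start is the upper boundary. Its summits lay at 50293460 and 50292683, 160 and 937 bases into the gene and 777 bases from each other. No other summit lay within 50 kb, and no other protein-coding gene did either. The nearest other gene, Rftn1, was 88896 bases away. The next summits were 175864 bases below the gene and 205396 bases above it, so the pair at the Dazl start stood alone over that whole stretch. Among the 2484 protein-coding genes with no coding neighbour within 50 kb, 53.2% had any summit inside or within 50 kb.

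Meioc (gene ID 268491) spans chr11:102665351-102682240, 16890 bases on the plus strand, with its annotated start at 102665585. One summit, at 102665389, lay 196 bases before that start, and the other, at 102666217, lay 632 bases after it. They were 828 bases apart and stood on either side of the start. The first was also 38 bases inside the lower boundary of the gene table, which lies 234 bases before the annotated start. Dazl and Meioc were the members with 2 summits within 1 kb of the start, 2 of the 4 with an annotated start, while 18.0% of genes with a start had 2 or more. The remaining summit within 50 kb, at 102697757, lay 191 bases from the boundary of Ccdc43, at an offset of -32 bases from its start.

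Ythdc2 (gene ID 240255) spans chr18:44827730-44889720 and is the longest member, with 61991 bases. It had 1 summit inside, at 44828876, which was 1146 bases above the lower boundary and 60844 bases below the upper one. The rest of the gene held no listed summit, and beyond its upper boundary the next lay 604635 bases away. The other summit within 50 kb, at 44812239, lay 15491 bases below the gene and 57 bases outside Mcc, its neighbour. Per kb of gene, Ythdc2 had the lowest number of summits inside, 0.0161, while the other members had between 0.104 for Stra8 and 0.141 for Dazl. An annotated start for Ythdc2 was not used here, so its distances are from gene boundaries.

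Rec8 (gene ID 56739) spans chr14:55618002-55625395 and is the shortest member, with 7394 bases on the plus strand. Its only summit inside lay at 55618180, 14 bases after the annotated start at 55618166. A summit at least that close to a start was found at 4.29% of genes, while the figures for the closest summits of Dazl and Meioc were 35.5% and 39.7%. Among the 4 members with an annotated start, Rec8 had the summit closest to it. That start is 164 bases inside the lower boundary of the gene table. From the boundary the summit was 178 bases away, farther than the 38 bases at Meioc and 160 at Dazl. The other summits within 10 kb, at 55626039 and 55635127, were both inside Ipo4, an importin gene whose span begins 5 bases beyond the end of Rec8. The first of them was 644 bases past the end of Rec8 and 639 bases inside Ipo4, so it lay where the ends of the genes meet, and the second was 557 bases from the Ipo4 start.

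**Figure D2:**
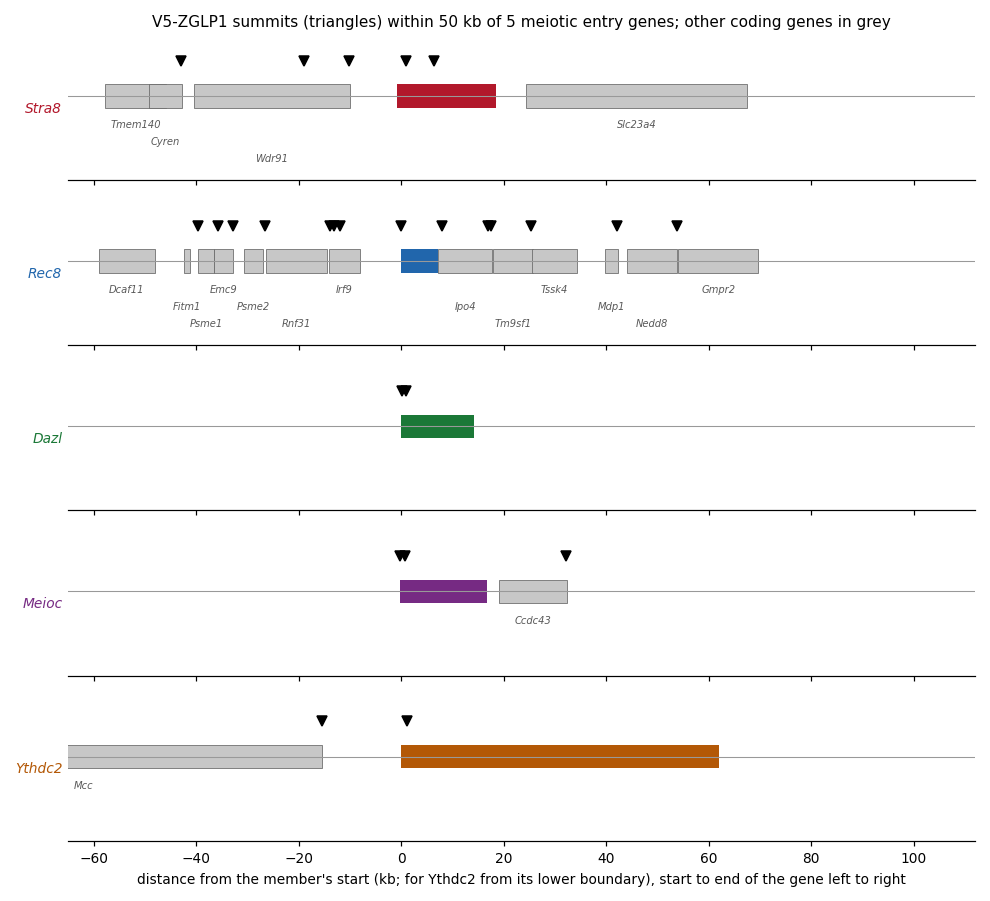
Summits (triangles) within 50 kb of each member, with the member in colour and other protein-coding genes in grey, against distance in kb from the member's start (for Ythdc2, from its lower boundary). Apart from the second Stra8 summit, those inside members gather at the left end of each coloured gene, Dazl has no other gene or summit in reach, and Rec8 lies among 13 genes and 14 summits.

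The summits at Rec8 and Meioc fell inside the 300-base promoter windows of the RefSeq table, which run from 250 bases before the start to 50 after, so the bases beneath them can be shown. The 41 bases centred on each summit are given 5′ to 3′ on the strand of the gene, with the summit base in capitals. The Rec8 stretch is chr14:55618160-55618200, plus strand, and the Meioc stretch is chr11:102665369-102665409, plus strand.
Rec8 summit: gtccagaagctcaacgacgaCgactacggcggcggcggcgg
Meioc summit: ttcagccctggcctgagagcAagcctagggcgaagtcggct
The Rec8 summit is base 265 of its window and the Meioc summit base 55. The Rec8 base stands after the annotated start, in repeated cga letters just before a run of cgg triplets. The Meioc base stands before the annotated start, though 38 bases inside the span of the gene table. Whether the deposited positions count from 0 or 1 is open, which could move each capital by 1 base.

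The whole windows of the 4 members with a start are shown. Of 14 motif searches, CCAAT alone had a match in all 4 windows, and it is marked for that reason. Ythdc2 had no window to search, and the Stra8 and Dazl windows held no summit. They are chr6:34920698-34920997 for Stra8, chr14:55617916-55618215 for Rec8 and chr11:102665335-102665634 for Meioc, on the plus strand, and chr17:50293571-50293870 for Dazl, on the minus strand, all from RefSeq on GRCm38.p6. Capitals mark CCAAT or its complement ATTGG.
Stra8 promoter: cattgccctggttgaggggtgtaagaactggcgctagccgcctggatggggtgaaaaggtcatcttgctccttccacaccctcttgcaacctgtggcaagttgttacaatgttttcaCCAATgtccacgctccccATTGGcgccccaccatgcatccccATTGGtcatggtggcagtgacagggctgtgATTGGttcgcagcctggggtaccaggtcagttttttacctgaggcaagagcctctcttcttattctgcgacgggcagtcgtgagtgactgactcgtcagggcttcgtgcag
Rec8 promoter: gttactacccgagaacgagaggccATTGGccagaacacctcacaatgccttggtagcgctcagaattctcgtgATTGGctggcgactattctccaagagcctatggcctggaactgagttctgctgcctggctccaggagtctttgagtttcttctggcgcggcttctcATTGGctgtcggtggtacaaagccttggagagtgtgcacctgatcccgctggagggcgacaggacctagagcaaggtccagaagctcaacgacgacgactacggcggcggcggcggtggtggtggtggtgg
Dazl promoter: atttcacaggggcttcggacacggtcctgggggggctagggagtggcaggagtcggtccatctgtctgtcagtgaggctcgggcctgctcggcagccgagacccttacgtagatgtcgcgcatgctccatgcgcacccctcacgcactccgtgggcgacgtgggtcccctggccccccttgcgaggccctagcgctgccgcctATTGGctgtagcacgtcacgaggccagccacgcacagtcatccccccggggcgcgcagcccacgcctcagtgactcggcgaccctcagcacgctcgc
Meioc promoter: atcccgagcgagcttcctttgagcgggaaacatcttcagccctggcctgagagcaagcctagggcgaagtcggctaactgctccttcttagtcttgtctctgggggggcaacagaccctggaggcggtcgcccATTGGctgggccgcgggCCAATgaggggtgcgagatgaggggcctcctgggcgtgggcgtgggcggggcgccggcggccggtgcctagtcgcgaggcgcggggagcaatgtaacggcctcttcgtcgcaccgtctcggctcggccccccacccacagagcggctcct
All 4 windows held the CCAAT letters on either strand, as did 37.4% of the 32851 windows in the table. Stra8 held 4 matches, first bases at -133, -115, -91 and -61 from the start, where 1.06% of all windows held 4 or more. Rec8 held 3, at -226, -177 and -81, where 3.37% of windows held at least 3. Meioc held 2, at -117 and -100, and Dazl held 1, at -47. All 10 matches thus lay before the start. CCAAT is the core of the site bound by the widely expressed factor NF-Y. Among windows of protein-coding genes, CCAAT was found in 40.4% of those with a summit inside the window and in 37.4% of those without.

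The letters GATA, the core that GATA factors bind, were searched on both strands and were in 0 of the 4 windows, while 57.9% of all windows held them. Among protein-coding windows, GATA was present in 39.1% of those with a summit and 58.0% of those without. The longer forms that contain GATA were likewise in 0 of 4. Of all windows, 11.2% held AGATAA, 9.05% TGATAA, 8.95% AGATAG and 7.29% TGATAG. Among protein-coding windows, each was in 2.48% to 4.86% of those with a summit and 7.54% to 11.6% of those without. The retinoic acid receptor hexamer AGGTCA was present in the Stra8 window, at -194 and -38, and in none of the other windows. Its share was 16.3% of all windows, and 10.1% of protein-coding windows with a summit and 16.3% of those without. Direct copies of AGGTCA spaced 5 or 2 bases apart were in 0 of 4 windows and in 0.00913% of all windows for each spacing, and GGTTCA was in 0 of 4, against 10.4%. Meioc held GCGGGAA, an E2F-type motif, at -228, against 4.60% of all windows, and GGGCGG, the core of GC boxes, at -57, against 35.7%. Among protein-coding windows with a summit, as at Meioc, the shares were 10.1% and 71.0%, and among those without they were 4.55% and 37.8%. CACGTG, the E-box that MGA and MAX can bind, and TATAAA, the TATA box letters, were in 0 of 4 windows, against 7.15% and 13.6%. Among protein-coding windows with a summit, these shares were 11.4% and 5.05%, and among those without they were 6.64% and 15.1%. Protein-coding windows with a summit also had a higher median GC content, 63% against 53.3% without. The part of base composition in the differing motif shares, those of GATA included, was not tested. A match is a run of letters and not a shown site, and a missing match says only that the letters were not in these 300 bases.

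The windows also differed in CpG content. CG pairs numbered 28 in Dazl and in Meioc, 18 in Rec8 and 10 in Stra8, and GC content was 68.7%, 68.3%, 58.3% and 55.7% in the same order. Protein-coding windows with a summit had a median of 24 CG pairs and 63.0% GC, and those without had 7 and 53.3%. Dazl and Meioc were thus above the median of windows with a summit, while Rec8 and Stra8 lay between the medians. Stra8, which had the fewest CG pairs of the 4, had no summit within 250 bases of its start. Rec8, also below the median of 24 CG pairs, had a summit 14 bases from its start. Any link between CpG content and summit position was not tested. The Dazl window itself held no summit, since both of its summits lay beyond the 50 bases after the start.

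Within 50 kb, most summits belonged to other genes. Of the 26 summits, 8 were nearest to the member, and these were the same 8 that lay inside it. The other 18 were nearest to another protein-coding gene, and 16 of them lay within 1 kb of that gene's boundary. The exceptions were a summit deep in Wdr91, 8855 bases from its boundary, and a summit in Irf9, 2267 bases from its boundary. At Rec8 the split was widest, with 1 of its 14 summits nearest to Rec8 and 13 nearest to neighbours. Of its 13 coding neighbours, 12 had a boundary with a summit within 1 kb, against 52.9% of all protein-coding genes. Among them were Psme1 (73 bases), a proteasome activator gene, and Nedd8 (134 bases), which encodes a ubiquitin-like protein. The Nedd8 summit also lay within 1 kb of the gene beyond it, so the 12 genes did not have 12 separate summits. Of the 4 coding neighbours of Stra8, 2 had a boundary with a summit within 1 kb. At Stra8 2 of 5 summits were nearest to the member, at Meioc 2 of 3, at Ythdc2 1 of 2 and at Dazl 2 of 2.

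The median number of summits differed between genes with few and with many coding neighbours, so each member is set beside genes with as many neighbours. Stra8, with 4 neighbours, had 5 summits inside or within 50 kb, and the 2613 genes with 4 neighbours had a median of 5 (quartiles 2 and 7). Rec8, with 13 neighbours, had 14, and the 58 genes with 13 neighbours had a median of 12.5 (quartiles 0 and 16). Dazl had 2, and the 2484 genes with 0 neighbours had a median of 1 (quartiles 0 and 2). Meioc had 3 and Ythdc2 2, with 1 neighbour each, and the 3816 genes with 1 neighbour had a median of 2 (quartiles 0 and 4). All 5 members were at or above the median of genes with as many neighbours, and none was outside the quartiles. The 14 summits around Rec8, a count reached by 5.03% of all protein-coding genes, were thus near the median of genes with 13 neighbours. Those 58 genes were mixed, since only 65.5% of them had a summit inside or within 50 kb.

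**Figure D3:**
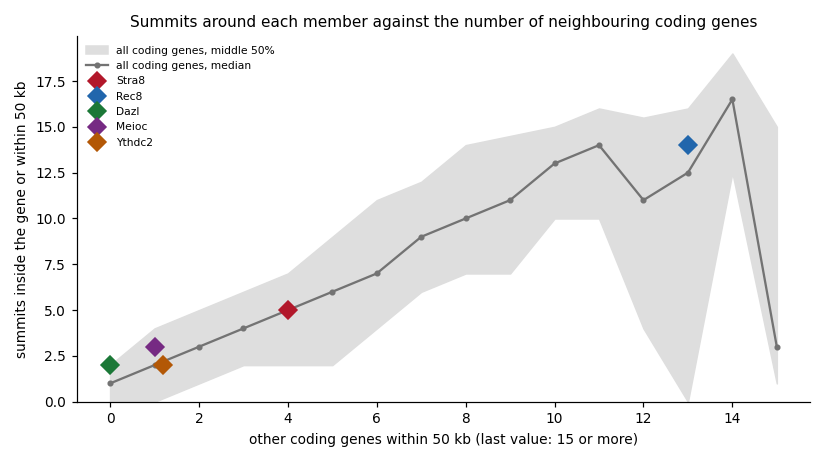
Number of summits inside or within 50 kb of each member (diamonds) against the number of other protein-coding genes within 50 kb, over the median (line) and quartiles (band) of all protein-coding genes. Stra8 and Ythdc2 lie on the median, and Dazl, Meioc and Rec8 lie above it within the band; Ythdc2 is drawn slightly to the right of its value of 1.

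Genes with summit counts most like those of the members were sought over 4 counts, inside the gene, within 1 kb of a boundary, within 10 kb and within 50 kb. For Stra8 (2, 0, 3 and 5), 10 protein-coding genes had the same 4 counts, and the closest to it in length were Mier2, Sorbs3 and L3mbtl1. For Rec8 (1, 2, 3 and 14), 5 genes had the same counts, and the closest in length were Zfp324, Tmem134 and Cnot3. Likeness here is in numbers of summits in 1 list only.

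The members were then placed among 73 other genes of meiotic entry in 6 roles, listed by known function. A summit inside or within 10 kb was listed for 67 of the 73 (91.8%), with a median of 2 summits, against 68.4% and a median of 1 over all protein-coding genes. Within 1 kb of a boundary the count was 54 of 73 (74.0%), against 52.9%. The closest summit lay at a median of 178 bases from a boundary over the members, 222 bases over the 73 genes and 658 bases over all protein-coding genes. The list was written with earlier results known, and its share is given as a description only.

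Among 7 RNA-binding genes that work with or beside the members, all 7 had a summit within 10 kb, against 68.4% of all protein-coding genes. Rbm46, whose product joins MEIOC and YTHDC2, had its closest summit 33 bases from a boundary, at an offset of -62 bases from its start. Nanos3, which protects germ cells, had 3 within 10 kb, the closest 111 bases into the gene. Boll, a relative of Dazl, had its closest summit 1152 bases from a boundary but 91 bases after an annotated start, and Pabpc1, a poly(A)-binding protein gene, had it at 422 bases. Meiosin, listed as Bhmg1 in the table, encodes the partner of STRA8 and had 6 summits within 10 kb, the closest 54 bases from a boundary, at an offset of -133 bases from the start. Unlike Stra8, it thus had a summit just before its start. Of the 7 transcription genes of entry, 6 had a summit within 10 kb, against the same 68.4% of all protein-coding genes. Zglp1 itself had 4, the closest 88 bases into the gene. Reads of the introduced V5-Zglp1 can fall on that gene, and their part was not tested. Tcfl5 had 1, at 800 bases, and Sohlh1, an oocyte and spermatogonial factor gene, had none within 10 kb, its closest being 16744 bases away.

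In the retinoic acid group, 15 of 16 genes had a summit within 10 kb, against 68.4% of all protein-coding genes. Within 1 kb of a boundary the count was 9 of 16 (56.2%), near the 52.9% of all protein-coding genes. Rxrb, a retinoid receptor gene, had its closest summit at 66 bases and Aldh1a2, which encodes a retinoic acid-making enzyme, at 67 bases. The closest summit to a boundary of Rarb lay at 64811 bases, yet it had 3 summits inside and 1 of them at an offset of -57 bases from an annotated start. Aldh1a1 had none within 50 kb, the closest being 423275 bases away. In the BMP group 15 of 16 genes had a summit within 10 kb, against the same 68.4%. Within 1 kb of a boundary 13 of 16 had a summit, against 52.9%. The BMP-responsive genes Id3 and Msx2 had theirs at 22 and 80 bases. Smad9 had its closest summit at 4583 bases, and Bmp2 had none within 50 kb, at 606562 bases.

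The 10 genes grouped as brakes on meiotic entry include Tet1, a DNA demethylation gene that acts the other way. All 10 had a summit within 10 kb, against 68.4% of all protein-coding genes. Pcgf6 and E2f6, subunits of a variant Polycomb complex that represses germline genes, had the closest ones, at 19 and 52 bases. Nanos2, which blocks Stra8 expression in male germ cells, had its closest summit at 1944 bases. Dnmt1, a DNA methyltransferase gene, had it 7293 bases from a boundary but 28 bases after an annotated start. Of 17 cohesin and early prophase genes, 14 had a summit within 10 kb, against the same 68.4%. Iho1 and Prdm9, both of meiotic recombination, had theirs at 34 and 36 bases. Sycp3 and Syce1, of the synaptonemal complex, had theirs at 30411 and 34019 bases. Hormad2, named after its value was seen, also had none within 10 kb, its closest being at 20156 bases. Smc1b and Stag3, which encode cohesin partners of REC8 and are among the 14, were also named after their values were seen. Smc1b had its closest summit 76 bases from a boundary, and Stag3 had its closest at an offset of -309 bases from an annotated start and 7686 bases from a boundary.

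**Figure D4:**
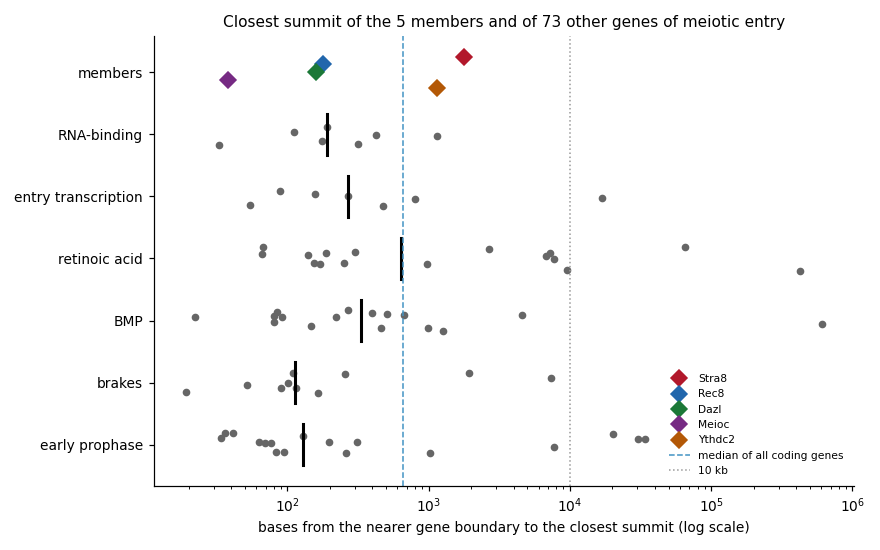
Bases from the nearer gene boundary to the closest summit (log scale) for the 5 members (diamonds) and 73 other genes by role (dots, with the median of each role as a bar), with the median of all protein-coding genes dashed and 10 kb dotted. Meioc at 38, Dazl at 160 and Rec8 at 178 bases lie left of the dashed line at 658 bases, and Ythdc2 at 1146 and Stra8 at 1773 bases lie to its right.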

How the data were processed

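Per the labels, anti-V5 ChIP from 4000000 cells per library and input DNA were sequenced. The peak caller MACS2 2.1.1.20160309, the aligner Bowtie 1.1.2, HOMER 4.9.1, SAMtools 1.3, Picard 2.1.0, Trim Galore 0.4.1, bedtools and cutadapt 1.9.1, and the build mm10, are named per the submitters' processing notes. The authors deposited summit positions in bases, with the same start and end in all 32927 lines and no score. The libraries behind the list, the peak threshold and the handling of reads with several matches are not given in the sources used here.

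Positions were read as counted from 1 and set against RefSeq gene spans for GRCm38.p6. A start is base 251 of a 300-base promoter window, and the table of windows need not hold every start. A summit counted when inside a gene or within the stated distance of it. Counts are descriptions with no test, beside the share of all protein-coding genes. Members and lists were chosen with earlier results of these data known. Most genes were named by a rule. It covered all members, the 2 pathway genes per role with the closest summit and the 2 with the farthest. It also covered the 3 genes most like Stra8 and Rec8, and neighbours nearest to a summit. Tet1, Hormad2, Smc1b, Stag3, Rftn1 and Slc23a4 were named outside this rule, after their values were seen. Motifs were searched as exact letters on both strands. Counting was tested on simulated data. Alternatives covered distance, merging, nearest gene, boundaries, a 1-base move and gene sets. Python 3.11.15, numpy 2.4.6, pandas 2.3.3 and matplotlib 3.10.9 were used.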

Additional observations from a re-analysis of the deposited data

How the results depend on the processing

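Members with a summit inside or within 10 kb numbered 5 under all 9 alternatives run. Each member had a summit inside its span and nearest to it, so the distance, nearest-gene and 1-base settings could not lower that count. Pathway genes with a summit numbered between 64 (within 1 kb) and 71 (within 50 kb). The 11 summits within 10 kb of a member became 19 within 20 kb and 26 within 50 kb, a change made by the wider distance itself. They became 9 within 1 kb, within 5 kb or merged within 1 kb, and 8 when a summit counted only for its nearest gene. The 4 members with a summit within 1 kb of the start became 3 within 500 bases, where Stra8 drops out, and 3 of all 5 members within 1 kb of either boundary, where Stra8 and Ythdc2 are left out. The share of genes with a summit within 10 kb, 68.4% of protein-coding genes, was 46.7% of all annotated genes and 71.0% of autosomal coding genes. A stricter peak threshold was not run, since the list holds no score. No paired analysis was possible because no group had a replicate and no summit is tied to a library. Depth is unknown, so the absence of a summit sets no limit on binding.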
